A study of Mus musculus with 12 samples.

Results

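The members described here are the protein-coding genes of mouse chromosome 8 whose mean over the 12 libraries reached 1 CPM (a gene's counts scaled to a common library size), ordered by start. There were 722 of them among the 43432 genes of the count table and the 1019 protein-coding genes of the chromosome in it. The genes were thus chosen by position and by measured mean CPM, and the chromosome because its difference between the groups in these same libraries was already known, so its general fall is given as a description without a test. The study compared CR705 tumours, which grow from cells of a mouse pancreatic cancer line, of 2 genotypes, WT and AHRKO, 6 libraries each. AHRKO names a knockout of the aryl hydrocarbon receptor, and the series title asks about tumour growth and immune cell infiltration without it.

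The labels give no age, sex, strain or host of animals, no way in which the knockout was made, and no number of cell clones behind it. The RNA protocol names tumours, whereas other protocol texts are about cultured cells given test compounds; no library label names a compound. Nothing states that replicates came from separate animals, so every p-value measures only the spread between these libraries, which may be technical. The Ahr transcript, from chromosome 12, ran from 101 to 125 CPM in WT (median 111) and from 62.5 to 143 in AHRKO (median 104). Its groups overlapped and it was not called different (edgeR adjusted p = 0.61), but a knockout can leave the transcript in place, so this level does not check the labels.

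The aryl hydrocarbon receptor is a transcription factor of the cytoplasm that moves to the nucleus when a ligand binds, pairs with ARNT and binds DNA at a short core sequence. Interferons act through other factors: STAT and IRF proteins bind the interferon-stimulated response element (ISRE), and STAT dimers bind the gamma-activated site (GAS). Genes along a chromosome are mostly read from their own promoters, while the DNA that carries them is inherited as a unit. Chromosome 8 carries genes of unrelated roles, among them housekeeping genes of protein sorting, RNA processing and DNA replication, and genes typical of leukocytes.

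The promoter sequences of 4 members that the results turn on are shown first. Each is the RefSeq promoter in build GRCm38.p6, 300 bases from 250 before to 50 after the transcription start, 5′ to 3′ on the gene's strand. Otud4, the fall with the smallest p, lies at chr8:79639426-79639725 on the plus strand, and capitals mark the letters GCGTG of the AHR core.

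Otud4: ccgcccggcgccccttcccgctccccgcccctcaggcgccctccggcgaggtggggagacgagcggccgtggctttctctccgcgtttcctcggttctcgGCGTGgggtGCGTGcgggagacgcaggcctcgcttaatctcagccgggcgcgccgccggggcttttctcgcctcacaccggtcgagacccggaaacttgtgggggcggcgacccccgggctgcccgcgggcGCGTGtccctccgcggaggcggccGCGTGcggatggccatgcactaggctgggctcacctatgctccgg

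Bst2, whose product tethers viruses to the cell surface, lies at chr8:71537423-71537722 on the minus strand. Capitals mark the ISRE letters, GAAA and GAAA with 2 bases of any kind between, with 2 matches that overlap each other.

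Bst2: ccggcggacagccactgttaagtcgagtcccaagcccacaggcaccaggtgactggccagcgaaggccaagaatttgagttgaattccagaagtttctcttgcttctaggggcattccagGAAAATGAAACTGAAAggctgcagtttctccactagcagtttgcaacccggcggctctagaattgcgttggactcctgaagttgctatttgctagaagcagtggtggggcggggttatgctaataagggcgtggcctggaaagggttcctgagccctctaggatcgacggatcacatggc

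Ddx60, an interferon-induced helicase between a pair of genes that fell, lies at chr8:61927837-61928136 on the plus strand, and capitals again mark the ISRE letters.

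Ddx60: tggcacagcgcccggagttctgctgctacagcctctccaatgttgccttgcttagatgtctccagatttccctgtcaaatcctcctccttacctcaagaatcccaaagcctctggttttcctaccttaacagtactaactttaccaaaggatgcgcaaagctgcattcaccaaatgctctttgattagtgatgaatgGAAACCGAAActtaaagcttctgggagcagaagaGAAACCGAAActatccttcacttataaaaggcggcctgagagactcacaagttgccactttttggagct

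Irf8, a transcription factor of myeloid and B cells that rose without overlap between the groups, lies at chr8:120736108-120736407 on the plus strand. Capitals mark TTCNNNGAA, the GAS letters.

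Irf8: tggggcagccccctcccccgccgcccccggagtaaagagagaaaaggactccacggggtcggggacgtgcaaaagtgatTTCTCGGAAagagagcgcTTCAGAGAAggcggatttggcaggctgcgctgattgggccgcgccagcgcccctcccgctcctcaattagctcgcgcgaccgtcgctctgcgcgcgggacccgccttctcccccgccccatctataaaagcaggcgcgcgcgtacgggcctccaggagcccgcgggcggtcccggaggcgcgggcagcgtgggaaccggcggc

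Both strands were searched, and only the motif named for a gene is in capitals. The Otud4 window held 4 matches to GCGTG, and the Bst2 and Ddx60 windows held 2 each to the ISRE letters. Irf8 held 2 matches to the GAS letters. The marked motif was set by hand for each gene, and other matches were present. Bst2 also held 1 match to GCGTG and 1 to the GAS letters, and Irf8 held 1 to GCGTG. Of all 32851 promoters in the table, 32.4% held GCGTG, 3.44% the ISRE letters and 8.30% the GAS letters. A match is a description of the letters and shows no binding.

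The 12 libraries held 14772343 to 35881469 counts, with a median of 21126478 in WT and 17420843 in AHRKO. AHRKO replicate 1 stood apart: its 14 pan-leukocyte markers summed to 3490 CPM, the sums of AHRKO replicates 2 to 6 were 621 to 1329 CPM, and those of WT 364 to 644. Its 8 epithelial markers summed to 565 CPM against 2466 to 4085 and 3026 to 4361, and its 8 endothelial markers to 1176 CPM against 245 to 391 and 197 to 471. Its 8 fibroblast markers summed to 55570 CPM against 9583 to 23151 and 16456 to 39996. In AHRKO replicate 2, 7 skeletal muscle markers summed to 385 CPM, against 1.84 to 9.17 elsewhere. All 14 leukocyte markers were called higher in AHRKO, and none of the 8 epithelial, 8 endothelial or 8 fibroblast markers was called. The 8 epithelial markers, which carcinoma cells of the pancreas carry, were above 0 in every library, while 9 acinar markers summed to only 7.55 to 50.6 CPM and Cela2a and Amy2b were at 0 throughout.

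The chromosome 8 genes as a group were lower in every AHRKO library than in every WT library. They took 5.52% to 6.01% of all counts in WT and 4.62% to 5.05% in AHRKO. For each library, the median over the members of log2 CPM minus the gene's WT mean ran from -0.09 to 0.06 in WT and from -0.41 to -0.26 in AHRKO, with an AHRKO mean of -0.34 ± 0.06 (SD, n = 6). Over protein-coding genes of the other chromosomes this value lay between -0.01 and 0.04 in all 12 libraries. Chromosome 12, measured the same way, ran from -0.09 to 0.08 in WT and from -0.35 to -0.15 in AHRKO. Chromosome 16 moved to the other side, with -0.03 to 0.05 in WT and 0.21 to 0.47 in AHRKO.

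**Figure D1:**
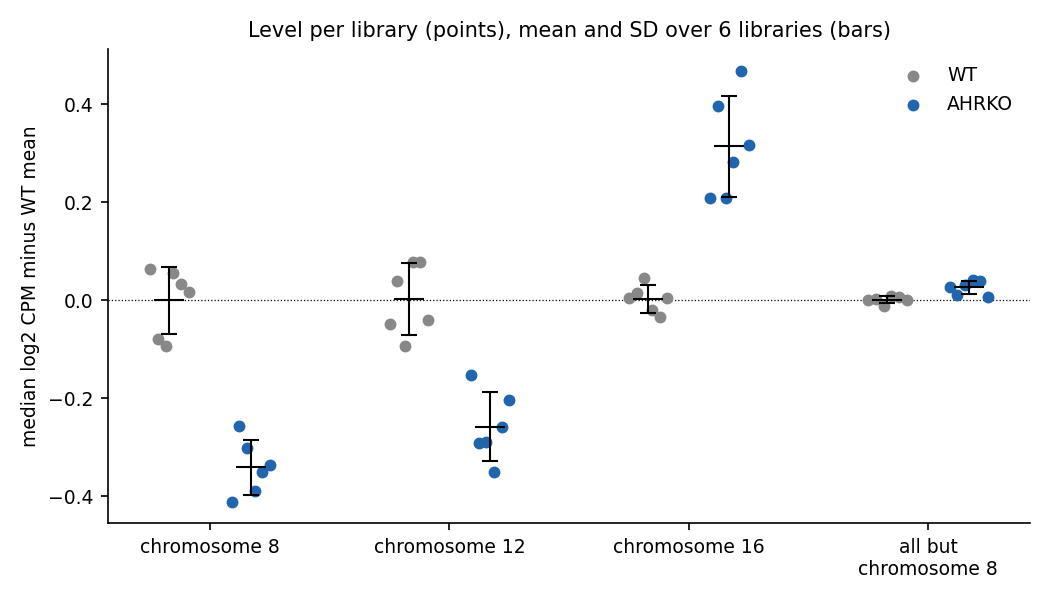
Each point is 1 library: the median over genes of log2 CPM minus the WT mean of the gene, for the genes of chromosomes 8, 12 and 16 and for all chromosomes but 8; bars show the mean and SD over 6 libraries. On chromosome 8 the AHRKO libraries sit between -0.41 and -0.26, all under the lowest WT library at -0.09.

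Between the groups, the median log2 fold change (AHRKO over WT) of the 718 members that passed the filter on low counts was -0.30, which is 81.1% of the WT level. The median was 0.02 over all 15449 genes tested and 0.05 over 12593 protein-coding genes off the chromosome. Of the members, 304 were called lower (42.3%) and 47 higher (6.55%) at an adjusted p of 0.05 over all genes tested. Across all genes tested 13.6% were called lower and 15.9% higher. The groups did not overlap, with AHRKO lower, for 216 members (30.1%, against 7.35% of all genes tested), and with AHRKO higher for 11 (1.53%, against 6.03%). A log2 fold change below 0 was found for 562 members (78.3%) and for 47.8% of all genes tested. Among the protein-coding genes off the chromosome, 12.5% were called lower and 18% higher, 6.43% were lower and 6.96% higher without overlap, and 44.7% were below 0. These shares come from the contrast for which the chromosome was chosen. The called rises numbered 30 without WT replicate 5, and 47 without AHRKO replicate 1, of which 42 were among the original 47. The called falls numbered 355 without AHRKO replicate 1 and included 303 of the 304.

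The difference was modest per gene and spread over many genes. Among the 304 falls the median log2 fold change was -0.58, with quartiles of -0.78 and -0.44. A fall of at most 0.5 on the log2 scale was found for 110, one between 0.5 and 1 for 158, and one of more than 1 for 36. The 367 members called neither way also leaned to one side, with 258 below 0 and 109 above it.

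**Figure D2:**
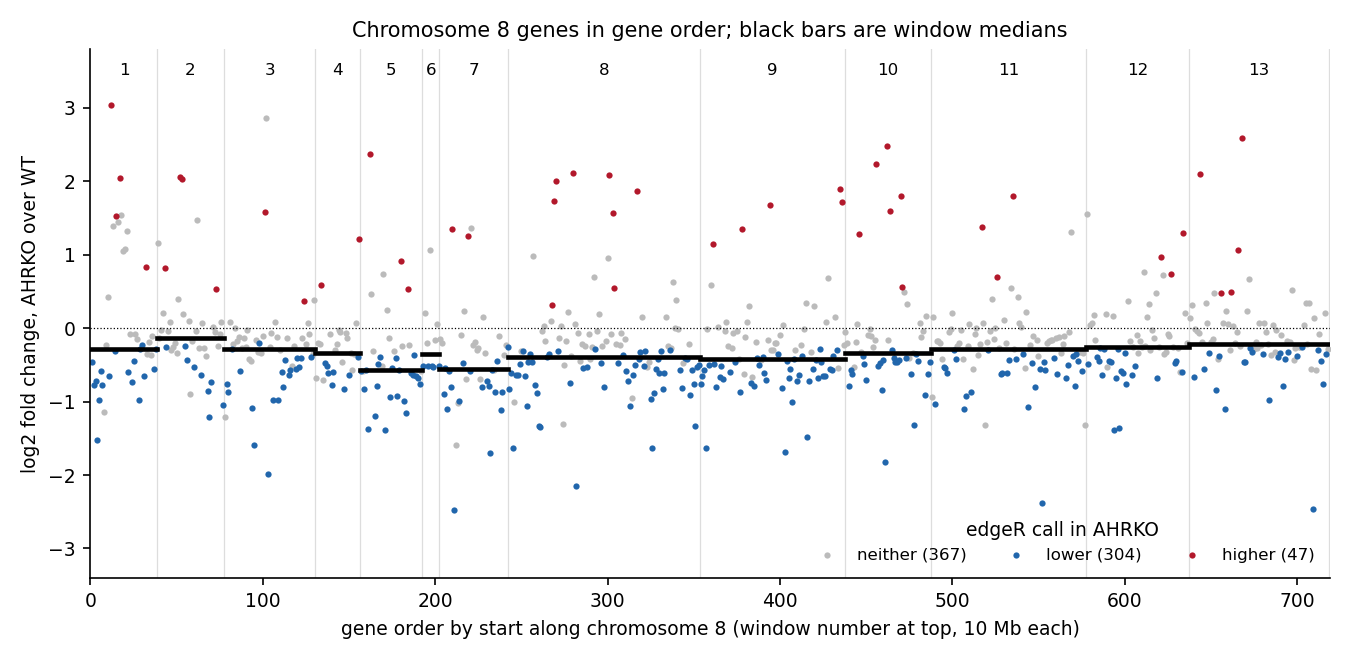
Each point is 1 of the 718 chromosome 8 genes tested, placed by its order along the chromosome; the y axis is the log2 fold change of AHRKO over WT, colours give the edgeR call and black bars the medians of 10 Mb windows. The medians lie below 0 in all 13 windows, and the 47 genes called higher are scattered among the other genes.

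Of the 722 members, 4 did not pass the filter on low counts, each with most of its CPM in 1 library. Acta1, skeletal muscle actin, was at 183 CPM in AHRKO replicate 2 and at 0.101 to 3.29 in the other libraries. Pdlim3, another muscle protein, was at 11.3 CPM in the same library. Adrb3, the beta-3 adrenergic receptor of fat, and Ces1d, a carboxylesterase, were at 16.5 and 9.96 CPM in AHRKO replicate 4. At the edge of the membership rule, Adam32 (1.04), Gm10643 (1.06), Pkd1l2 (1.06) and Gnao1 (1.08) were just inside by mean CPM. Myom2 (0.987), Car7 (0.975), Adam3 (0.951) and Sult5a1 (0.950) were just outside.

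In windows of 10 Mb by gene start, numbered 1 to 13 from the chromosome's first base, the depth of the fall varied with position. The lowest medians were -0.57 in window 5 (40 to 50 Mb, 36 genes), or 67.4% of WT, and -0.56 in window 7 (60 to 70 Mb, 40 genes), or 68.0% of WT. Between them, window 6 held only 10 genes, with a median of -0.35. Windows 8 and 9, with 111 and 84 genes, had medians of -0.40 and -0.41. From there the medians became less negative toward the far end, with -0.34, -0.28, -0.26 and -0.22 in windows 10 to 13. The near end had -0.28, -0.28 and -0.34 in windows 1, 3 and 4, and the shallowest median of the chromosome, -0.13, in window 2 (10 to 20 Mb, 39 genes). That value was -0.20 without WT replicate 3 and -0.04 without AHRKO replicate 4, and window 2 had the highest median in each case. The lowest window was 7 rather than 5 without WT replicate 5 or without AHRKO replicate 5 or 6.

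Set beside windows of the other chromosomes, those of chromosome 8 gathered at the low end. Of 217 windows of the genome with at least 20 protein-coding genes, 12 were on chromosome 8, all 12 with a median below 0. Elsewhere 83 of 205 were below 0. Ranked from the lowest, the 4 first windows of the genome were windows 5, 7, 9 and 8 of chromosome 8, and 11 of its 12 were among the lowest 20. Window 2 ranked 47. The lowest windows of other chromosomes were at 60 to 70 Mb on chromosome 14, with a median of -0.40, and at 50 to 60 Mb on chromosome 12, with -0.38. Chromosome 12 also gathered at the low end, with windows at ranks 6, 9, 10, 11 and 16, and its others at 26, 27, 39 and 44. Of its 447 genes, 165 were called lower and 30 higher. Their median was -0.24, and 71.1% were below 0.

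The place of the lowest medians was shared by AHRKO replicates 2 to 6 and differed in AHRKO replicate 1. In every window all 6 AHRKO libraries had a lower median than all 6 WT libraries. Each of replicates 2 to 6 was lowest in window 5 or 7, where their medians ran from -0.73 to -0.49 and from -0.62 to -0.35. Replicate 1 was instead lowest in window 3, at -0.60, against -0.40 to -0.22 in the others. It was also below the others in windows 1 and 4, at -0.54 in each, where they ran from -0.33 to -0.21 and from -0.36 to -0.19. In windows 8, 9 and 10 replicate 1 had the highest AHRKO medians, -0.27, -0.24 and -0.19, against -0.50 to -0.33, -0.53 to -0.32 and -0.44 to -0.32. In windows 11, 12 and 13 it was again the lowest, at -0.49, -0.53 and -0.47, where the others ran from -0.39 to -0.19, from -0.41 to -0.12 and from -0.23 to -0.13. Of replicates 2 to 6, replicate 4 was the lowest in windows 1, 3, 4 and 11 to 13, and also in windows 5 and 7. In window 12 it was at -0.41, and replicates 2, 3, 5 and 6 ran from -0.25 to -0.12. The borders of the stretches where replicate 1 differed were read from the values themselves and were not tested.

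**Figure D3:**
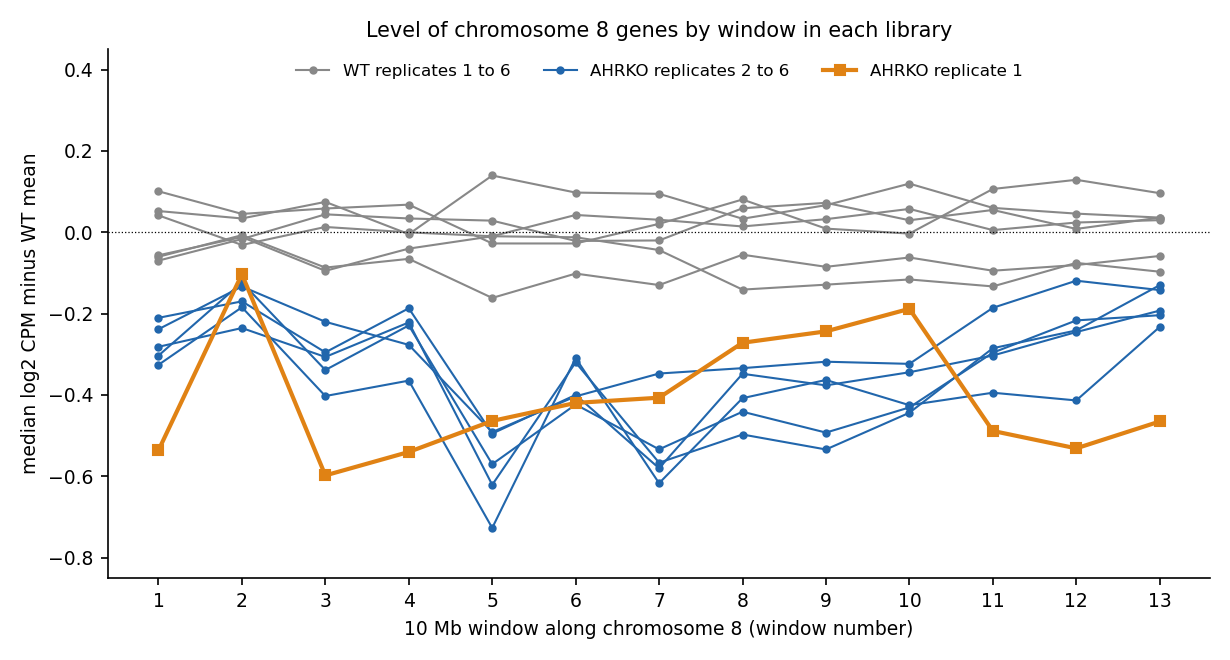
Each line is 1 library: the median over the genes of a 10 Mb window of log2 CPM minus the WT mean of the gene, for windows 1 to 13 along chromosome 8. The WT lines stay between -0.16 and 0.14; the AHRKO lines lie below them in every window, and AHRKO replicate 1 is the lowest in windows 1, 3, 4 and 11 to 13 and the highest AHRKO line in windows 2, 5 and 8 to 10.

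Gene by gene the same split was visible in AHRKO replicate 1. Off chromosome 8 it was the lowest AHRKO library for 32.1% of 12600 protein-coding genes and the highest for 34.9%. In windows 1, 3 and 4 together it was the lowest for 53.8% of 117 members and the highest for 17.1%. In windows 11 to 13 it was the lowest for 52.4% of 231 members. In windows 7 to 10 it was the lowest for only 18.9% of 285 members and the highest for 45.6%. These stretches were pooled after the values had been seen. This library's high leukocyte and low epithelial marker sums stand above, and their part in its profile was not tested.

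The member with the smallest p on the chromosome was Otud4 (ENSMUSG00000036990), a deubiquitinase, at chr8:79639618-79677724. It was at 287 to 400 CPM in WT (median 340) and at 117 to 151 in AHRKO (median 141), a log2 fold change of -1.33 ± 0.10 (SE; edgeR adjusted p = 1.50e-05). The 6 AHRKO libraries lay close together, well below the lowest WT library. Eps15l1, an endocytic adaptor at chr8:72340999-72421460, was at 91.1 to 115 CPM in WT (median 105) and at 44.3 to 60.6 in AHRKO (median 53.8; -0.96 ± 0.09, edgeR adjusted p = 5.11e-05). Vps35, the cargo-binding core of the retromer that returns receptors from endosomes, was at 209 to 244 CPM in WT (median 229) and at 120 to 161 in AHRKO (median 139). Its log2 fold change was -0.71 ± 0.08 (edgeR adjusted p = 1.64e-04). None of these 3 genes overlapped between the groups.

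Fto and Plpp5 completed the 5 falls with the smallest p. Fto, an RNA demethylase whose gene spans chr8:91313525-91668439, was at 106 to 122 CPM in WT (median 110) and at 65.5 to 76.8 in AHRKO (median 73.3; -0.62 ± 0.06, edgeR adjusted p = 1.07e-04). Plpp5, a lipid phosphatase, was at 84.8 to 96.8 CPM in WT (median 92.3) and at 56.2 to 65.2 in AHRKO (median 60.4; -0.59 ± 0.06). The spread within either group was small beside the distance between the groups for both genes.

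The members were also read by role, in lists written by hand with earlier results of these data known. Of all 718 members, 42.3% were called lower and 6.55% higher, and of all genes tested 13.6% and 15.9%. The counts of every list are to be read beside these shares, and no list was tested against them. Members in none of the lists numbered 440, with a median log2 fold change of -0.38, 208 lower and 19 higher. Protein turnover and sorting held 35 members, of which 17 fell and none rose, with a median of -0.32. Beside Otud4 and Vps35 the list held Siah1a, a ubiquitin ligase (-0.65 ± 0.11), and Dnaja2, a co-chaperone of HSP70 (-0.43 ± 0.07), both of which fell. The COP-I subunit Cope (-0.35) and the autophagosome protein Map1lc3b (-0.34) were also called lower. Lamp1, a lysosomal membrane protein, was at 0.10 and the proteasome subunit Psmd7 at -0.10, neither called.

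RNA processing and translation held 35 members, of which 17 fell and none rose, with a median of -0.26. Cnot1 (chr8:95719451-95807464) is the scaffold of the CCR4-NOT complex, which shortens the poly(A) tails of messenger RNA. It was at 260 to 382 CPM in WT (median 328) and at 124 to 197 in AHRKO (median 177), with a log2 fold change of -0.91 ± 0.13 (edgeR adjusted p = 6.63e-04). Cnot7 (chr8:40492540-40515847) encodes a deadenylase of the same complex and lies far away on the chromosome, in window 5. It was at 89.4 to 107 CPM in WT (median 104) and at 44.6 to 64.8 in AHRKO (median 57.9), with -0.83 ± 0.09. No AHRKO library reached a WT library for either gene. Ints10, a subunit of the Integrator complex (-0.80 ± 0.11), the helicase gene Ddx19a (-0.64 ± 0.10) and the splicing factor Sugp1 (-0.61 ± 0.09) fell as well. The ribosomal protein gene Rpl13 (0.23) and the translation repressor Eif4ebp1 (0.38) were above 0 without a call.

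Chromatin and transcription factors held 32 members, of which 17 fell and none rose, with a median of -0.32. Smarca5, the ATPase of ISWI chromatin remodellers, was at 196 to 223 CPM in WT (median 217) and at 103 to 141 in AHRKO (median 133; -0.76 ± 0.09). Smad1, which carries BMP signals to the nucleus, was at 72.5 to 81.1 CPM in WT (median 75.4) and at 38.0 to 54.8 in AHRKO (median 43.9; -0.76 ± 0.09). Both genes separated the groups, with edgeR adjusted p of 1.78e-04 and 1.83e-04. Crtc1, a coactivator of CREB (-0.77 ± 0.12), and Sin3b, a corepressor (-0.61 ± 0.11), fell too. Junb (-0.55), of the AP-1 family, was called lower, and its relative Jund was at 0.02 without a call.

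Receptors and signalling held 26 members, with the lowest list median, -0.41; 11 fell and none rose. Inpp4b (chr8:81342556-82127914) encodes a phosphatase of phosphoinositides. It was at 15.4 to 30.3 CPM in WT (median 24.4) and at 4.90 to 12.7 in AHRKO (median 6.52), a log2 fold change of -1.64 ± 0.26 (edgeR adjusted p = 1.13e-03), with no overlap. Ppp2cb, a catalytic subunit of protein phosphatase 2A, fell by 0.61 on the log2 scale. Prkaca, the catalytic subunit of protein kinase A, fell by 0.46 and Csnk2a2, of casein kinase 2, by 0.45. The insulin receptor gene Insr was called lower at -0.46, and Fgfr1 (-0.12) and Irs2 (-0.13) were not called.

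DNA replication, repair and mitosis held 28 members: 8 fell, 1 rose and the median was -0.20. Cdc16, a subunit of the anaphase-promoting complex, was at 144 to 162 CPM in WT (median 154) and at 89.3 to 109 in AHRKO (median 98.2; -0.63 ± 0.07, edgeR adjusted p = 1.68e-04). The AHRKO libraries of Cdc16 all lay below the WT libraries. The telomere proteins Terf2 (-0.41 ± 0.09) and Terf2ip (-0.51 ± 0.10) fell, as did Cul4a, a ubiquitin ligase scaffold (-0.43 ± 0.09). The 1 rise was Cdt1, which loads the replicative helicase, at 0.50. The helicase subunit Mcm5 (0.00) and the GINS subunit Gins2 (-0.01) stayed near 0 without a call.

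Among 33 genes of mitochondria and metabolism 12 fell, 2 rose and the median was -0.20. Slc7a6, a transporter of cationic and neutral amino acids, was at 207 to 288 CPM in WT (median 246) and at 67.8 to 145 in AHRKO (median 123; -1.08 ± 0.16, edgeR adjusted p = 7.75e-04). Its lowest AHRKO value was in replicate 1, and the groups were apart. Has3, which makes hyaluronan, fell by 2.38 on the log2 scale, and Hsdl1, a mitochondrial dehydrogenase-like protein, by 0.48. The 2 rises were Slc27a1, which takes up fatty acids, and Acsl1 (0.92), which activates them to acyl-CoA. Slc27a1 was at 58.8 to 71.3 CPM in WT (median 64.0) and at 76.8 to 114 in AHRKO (median 93.4; 0.55 ± 0.09, edgeR adjusted p = 1.35e-03). For Slc27a1, replicate 1 was the lowest AHRKO library, yet above every WT library.

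Of 11 genes of oxidative stress and metal handling, 3 fell and 2 rose, with a median of -0.12. Gsr, which regenerates glutathione, was at 508 to 690 CPM in WT (median 614) and at 263 to 439 in AHRKO (median 354; -0.77 ± 0.14). Prdx2, a peroxidase, fell by 0.68 on the log2 scale. In the opposite direction, Gdf15, a stress-induced cytokine, was at 0.952 to 3.87 CPM in WT (median 1.36) and at 3.44 to 12.2 in AHRKO (median 6.62; 2.00 ± 0.44, edgeR adjusted p = 5.96e-03), with a slight overlap. Osgin1, an oxidative stress response gene, rose by 0.74 ± 0.17. Nqo1 (-0.12) and Hmox1 (0.63) were not called.

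Adhesion, matrix and vessel genes numbered 32 tested, of which 5 fell and 2 rose; the median was -0.18. Mmp15, a membrane-bound matrix protease, was at 64.1 to 114 CPM in WT (median 78.6) and at 26.6 to 48.6 in AHRKO (median 32.1; -1.32 ± 0.18, edgeR adjusted p = 4.36e-04). Palld, an actin scaffold (-0.80 ± 0.18), and Bcar1, a focal adhesion adaptor (-0.61 ± 0.13), fell. The E-cadherin gene Cdh1 was at 348 to 650 CPM in WT (median 555) and at 78.6 to 514 in AHRKO (median 446; -0.38 ± 0.34, not called). Col4a1 (-0.03) and Col4a2 (0.21), the basement membrane collagens, were not called. Plvap (0.96) and Cdh5 (0.15), both endothelial, were not called either.

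**Figure D4:**
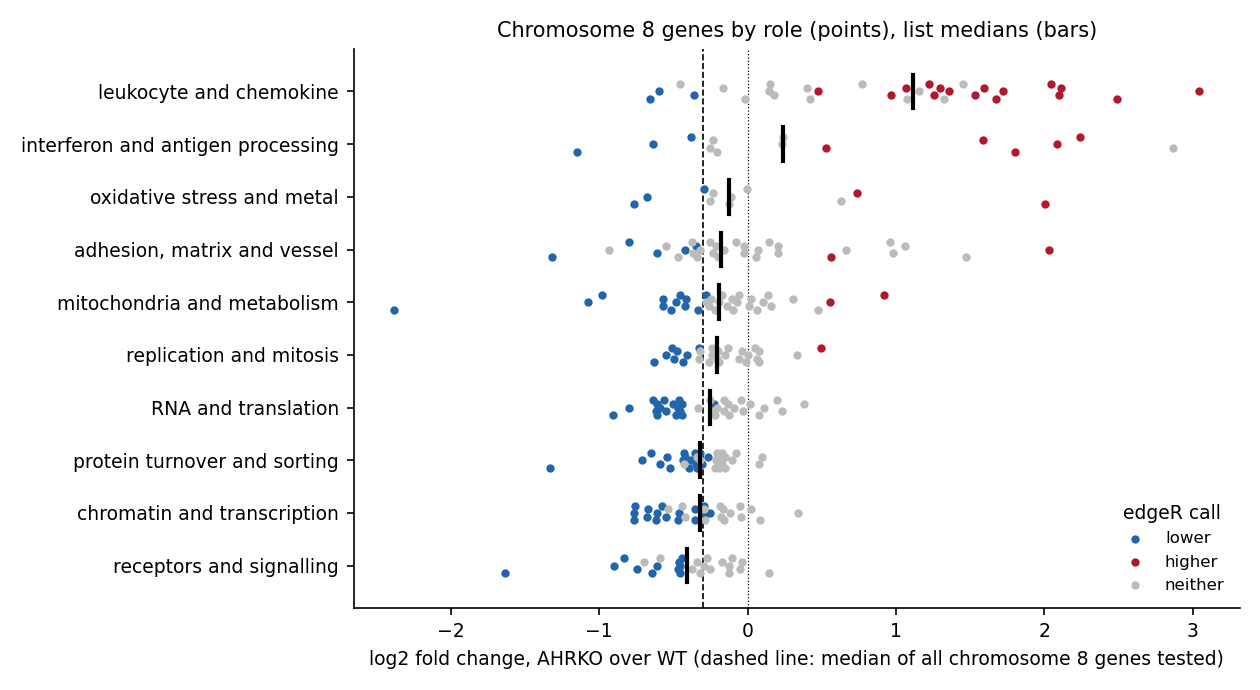
Each point is 1 chromosome 8 gene, placed by its log2 fold change of AHRKO over WT and coloured by its edgeR call; bars are list medians and the dashed line is the median of all chromosome 8 genes tested, -0.30. The leukocyte and chemokine list has a median of 1.12, the interferon and antigen processing list 0.24, and the other 8 lists lie between -0.41 and -0.12.

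Of the lists, only the immune and interferon lists had a median above 0. They were written by hand with earlier results of these data known, so their counts are a description. Over all genes tested, 15.9% were called higher and 13.6% lower. The lists do not hold every gene of these roles: the interferon-induced Ddx60 and the leukocyte gene Snx20, both called higher, are examples in neither list. The 32 leukocyte and chemokine genes had a median log2 fold change of 1.12, with 16 higher and 3 lower, and the 14 interferon and antigen processing genes a median of 0.24, with 5 higher and 3 lower. Taken as 1 set of 46, they had a median of 1.02 and 21 rises, and the remaining 672 members a median of -0.33, 26 rises and 298 falls. The summed pan-leukocyte markers were also higher in AHRKO, at 621 to 3490 CPM against 364 to 644 in WT, with 14 of 14 markers called higher. Library by library the rises did not all follow this sum. Irf8 was highest in AHRKO replicate 1 and lowest among AHRKO libraries in replicate 5, as was the sum, whereas Cotl1 was highest in replicate 5. The part of these cells in the result was not tested. In these bulk libraries more cells of a type and more RNA per cell cannot be told apart, nor can fewer cells and less RNA per cell.

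Irf8 (ENSMUSG00000041515, chr8:120736358-120756694) was at 20.1 to 34.4 CPM in WT (median 25.8) and at 51.3 to 229 in AHRKO (median 94.4), a log2 fold change of 2.10 ± 0.31 (edgeR adjusted p = 8.46e-04). AHRKO replicate 1 was the highest, and all 6 AHRKO libraries were above all 6 WT libraries. Ccl22, a chemokine that draws regulatory and helper T cells, was at 1.51 to 11.2 CPM in WT (median 5.98) and at 11.3 to 92.4 in AHRKO (median 23.8; 2.49 ± 0.56, edgeR adjusted p = 6.79e-03). The groups of Ccl22 met almost edge to edge, and without AHRKO replicate 1 the log2 fold change was 1.89 (edgeR adjusted p = 6.39e-03). Ccl17, a nearby chemokine gene for the same receptor, rose by 1.59. Cx3cl1, a chemokine gene that lies between Ccl22 and Ccl17, was at -0.17 without a call. Cotl1, a protein that binds actin in leukocytes, was at 95.4 to 182 CPM in WT (median 136) and at 287 to 381 in AHRKO (median 337; 1.29 ± 0.15, edgeR adjusted p = 1.83e-04). The AHRKO libraries of Cotl1 lay close together, and replicate 1, at 360 CPM, was within their range.

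Further leukocyte genes rose with an overlap between the groups. Msr1, a scavenger receptor of macrophages, rose by 1.22 ± 0.31, Il12rb1, a receptor chain for interleukins 12 and 23, by 2.11 ± 0.53, and Nod2, a sensor of bacterial peptidoglycan, by 1.72. Retn, which encodes resistin, had the largest log2 fold change of all, 3.05 ± 0.90, from 0 to 1.24 CPM in WT (median 0.423) to 0.475 to 15.2 in AHRKO (median 2.03). That value rested on replicate 4: without it the log2 fold change was 1.74 (edgeR adjusted p = 0.072), and the adjusted p of Retn was 0.050 and 0.051, past the threshold, without WT replicate 2 or 6. The Cd209 lectin genes, related members of a gene family, formed the longest run of neighbours above 0, 7 genes from Cd209a to Cd209g. Reads shared among related genes can be divided uncertainly, and this was not checked. Of that family Cd209a (1.53) and Cd209d (2.04) were called higher. The 3 falls of the list were Stxbp2, needed for granule release (-0.66 ± 0.10), Adgre5, the CD97 adhesion receptor (-0.60 ± 0.13), and Jak3 (-0.36), a kinase of cytokine receptors.

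Of the interferon and antigen processing genes, Bst2 was at 18.3 to 53.9 CPM in WT (median 26.8) and at 44.1 to 228 in AHRKO (median 133; 2.08 ± 0.36, edgeR adjusted p = 1.86e-03). Psmb10, a subunit of the immunoproteasome, was at 22.2 to 64.9 CPM in WT (median 25.3) and at 46.1 to 163 in AHRKO (median 115; 1.81 ± 0.33, edgeR adjusted p = 2.47e-03). Nlrc5, the transactivator of MHC class I genes, was at 9.37 to 80.6 CPM in WT (median 10.7) and at 27.6 to 188 in AHRKO (median 110; 2.24 ± 0.67, edgeR adjusted p = 0.025). WT replicate 4 was the only WT library that overlapped with AHRKO for Bst2, Psmb10 and Nlrc5. Without it the log2 fold change of Nlrc5 was 3.24 (edgeR adjusted p = 2.07e-03). Its call was lost, with adjusted p between 0.050 and 0.056, when WT replicate 1, 2, 5 or 6 was left out, and without AHRKO replicates 1 and 2 together the value was 1.78 (edgeR adjusted p = 0.071). Irf2 rose by 0.53 without overlap, and Ido2, an enzyme of tryptophan breakdown, by 1.58. Its neighbour Ido1 was at 2.87 ± 1.05, which missed the threshold (edgeR adjusted p = 0.056). Rfxank, a subunit of the factor that binds MHC class II promoters, was in the same list and fell by 0.64 ± 0.14.

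Outside the immune lists 26 members rose, Ddx60 and Snx20 among them, so these are not all genes without immune roles. Slc7a2 (chr8:40862396-40922308), which imports arginine and other cationic amino acids, was at 22.9 to 44.3 CPM in WT (median 37.1) and at 73.6 to 334 in AHRKO (median 160; 2.37 ± 0.34, edgeR adjusted p = 6.39e-04). Its highest AHRKO libraries were replicates 3 and 4, and the groups were apart. Tppp3, a protein that bundles tubulin, was at 9.06 to 19 CPM in WT (median 11.9) and at 21.6 to 43.9 in AHRKO (median 37.6; 1.38 ± 0.21, edgeR adjusted p = 9.83e-04). The coagulation factor genes F7 and F10 lie side by side in window 2, F7 at chr8:13026034-13035809 and F10 at chr8:13037308-13056676. F7 was at 4.4 to 9.77 CPM in WT (median 5.44) and at 6.56 to 47.4 in AHRKO (median 23.4; 2.06 ± 0.39). F10 was at 4.66 to 9.51 CPM in WT (median 7.28) and at 8.49 to 76.7 in AHRKO (median 21.6; 2.03 ± 0.43). For both, replicate 1 was highest and replicate 5 reached into the WT range. The log2 fold change of F10 was 1.39 without AHRKO replicates 1 and 2.

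Other rises outside the lists included Cyp4f18, a fatty acid hydroxylase (1.86 ± 0.36), Snx20, a sorting nexin of leukocytes (1.89 ± 0.41), and the adhesion receptor gene Adgrg5 (1.80 ± 0.38). Without AHRKO replicates 1 and 2 the last pair were at 1.26 and 1.21. Cyp4f18 was without overlap between the groups, but its span overlaps that of Zfp961 on the other strand, and strand use in counting was not given. The same doubt holds for other named genes whose spans overlap an annotated neighbour: Vps35 (Orc6), Cnot7 (Vps37a and Zdhhc2), Prdx2 (Junb and Rnaseh2a), Adgre5 (Ddx39), Rfxank (Nr2c2ap), Has3 (Chtf8), Mast1 (Dnase2a), and Gsr, Siah1a, Fto, Nlrc5, Cnot1, Terf2ip and Banp with predicted genes or transcripts. Zfp703, a corepressor, had the smallest rise among the genes chosen for their window (0.37 ± 0.11). Its edgeR adjusted p was 0.050 to 0.064, past the threshold, when WT replicate 1, 3 or 5 was left out, and likewise for replicate 2 of AHRKO. Cdh15, a muscle cadherin, was called higher at 2.60 although replicate 1, at 0.297 CPM, was below every WT library. The rises without overlap were 11 in number: Rab20, Fut10, Slc7a2, Irf2, Slc27a1, Cyp4f18, Ccl22, Tppp3, Cotl1, Irf8 and Cbfa2t3.

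**Figure D5:**
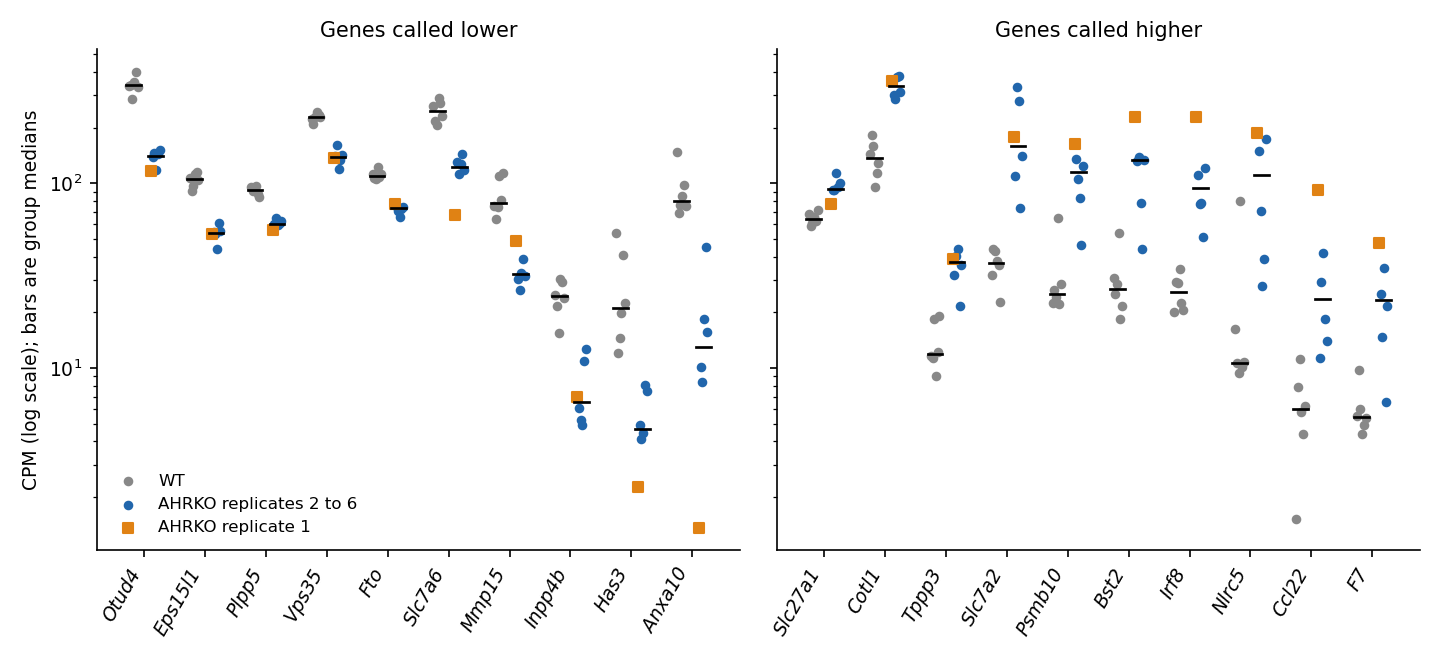
CPM on a log axis for 10 genes called lower (left) and 10 called higher (right); each point is 1 library, AHRKO replicate 1 has its own marker and bars are group medians. Otud4 runs from 287 to 400 CPM in WT and from 117 to 151 in AHRKO, while Bst2, Psmb10 and Nlrc5 overlap between the groups and spread widely in AHRKO.

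The largest fall was that of Anxa10, an annexin of gastric epithelium. It was at 69.4 to 148 CPM in WT (median 80.5) and at 1.36 to 45.4 in AHRKO (median 12.9; -2.47 ± 0.56, edgeR adjusted p = 6.92e-03). Its highest AHRKO library was replicate 5, without which the log2 fold change was -3.08. Has3 was at 12 to 54 CPM in WT (median 21.1) and at 2.25 to 8.11 in AHRKO (median 4.69; -2.38 ± 0.41). Both genes were lowest in AHRKO replicate 1, and neither overlapped. Kcnk1, a potassium channel gene at the far end, was at 7.49 to 47.1 CPM in WT (median 16.3) and at 0.059 to 9.39 in AHRKO (median 2.64; -2.46 ± 0.75). Its groups overlapped, and its edgeR adjusted p of 0.027 rose past the threshold, to 0.052 to 0.060, when WT replicate 3 or 6 was left out, and likewise for replicates 3, 4 and 6 of AHRKO.

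The other members of the 10 largest falls have varied known roles, and a relation among them was not tested. Kcnn1, another potassium channel gene, was at 4.66 to 6.90 CPM in WT (median 6.04) and at 0.399 to 1.90 in AHRKO (median 1.55; -2.15 ± 0.31, edgeR adjusted p = 6.63e-04). Mast1, a kinase mainly of neurons, was at 13.8 to 22.9 CPM in WT (median 22.2) and at 2.73 to 11.1 in AHRKO (median 5.55; -1.68 ± 0.31). Calr3, a calreticulin of the testis, was at 6.75 to 12.3 CPM in WT (median 9.13) and at 0.949 to 5.28 in AHRKO (median 2.42; -1.63 ± 0.36). These 3 genes separated the groups. Tex45 (-1.53 ± 0.37), Tm6sf2, which acts in hepatic lipid export (-1.63 ± 0.26), and Pllp, a protein of myelin and epithelial membranes (-1.82 ± 0.47), completed the set, all without overlap.

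Opposite calls stood next to each other in places. Among neighbouring members, 24 pairs had 1 gene called lower and the other higher. The number of such pairs expected in a random gene order was not computed, so the count is a description. Pllp and Ccl22 are 49.3 kb apart, with log2 fold changes of -1.82 and 2.49. Ddx60 (1.35 ± 0.39) lies 25.4 kb from Palld (-0.80) and 18.8 kb from Anxa10 (-2.47), so that it rose between falls. Ddx60 was at 1.94 to 4.86 CPM in WT (median 3.14) and at 3.41 to 19.3 in AHRKO (median 6.26), and its groups overlapped. Its edgeR adjusted p was 0.052 without WT replicate 5 and 0.050, just past the threshold, without WT replicate 6. Stxbp2 and Retn are 12.1 kb apart. The genes Palm3 (-0.87) and Il27ra (1.36) touch on opposite strands. Of the 47 rises, 19 had both neighbours below 0, 22 had 1 and 6 had none; both were below 0 for 207 of the 304 falls and 435 of all 718, a larger share than among the rises. The longest run of neighbours below 0 was 28 genes, from Atp6v1b2 to Upf1.

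Level and spread are given for the rises and falls as a description only. A call by direction favours a low WT value among rises, and Retn reached the mean CPM rule only through AHRKO. The median WT level per kilobase of exon was 2.85 CPM for the 47 rises and 11.7 CPM for the 304 falls, and 9.05 CPM over all 718. The median coefficient of variation among WT libraries was 26.6% for the rises and 10.7% for the falls, and among AHRKO libraries 60.3% and 14.3%. AHRKO replicate 1 was the highest AHRKO library for 29 of the 47 rises and the lowest for 7. In the immune lists it was the highest for 16 of 21, and outside them for 13 of 26. Over the called rises, the median of log2 CPM minus the WT mean was 2.39 in replicate 1 and 0.56 to 1.17 in the other AHRKO libraries. The leukocyte marker sum of that library stands above, and its part in these rises was not tested.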

How the data were processed

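RNA from 6 WT and 6 AHRKO CR705 libraries was compared. Per the labels' protocols, poly(A) RNA was made into Illumina libraries. The submitters' processing notes name HISAT2, SAMtools, HTSeq and DESeq2 with build mm10; versions, annotation and strand setting were not given in the sources used here. Whole-number raw counts per gene were deposited by the authors, 1 column per library.

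Gene types and positions came from GENCODE M21 by Ensembl ID; 884 of the 43432 genes had no match there. Membership used mean CPM on library totals of at least 1. Genes were kept by filterByExpr (15449), scaled by TMM and fitted over all 12 libraries with edgeR's quasi-likelihood test (edgeR 4.0.16, R 4.3.3) in its two-sided form; p-values were adjusted by Benjamini and Hochberg's method over all genes kept, and the threshold was 0.05. CPM values of single genes and libraries are scaled by TMM, and levels on the log2 scale use a prior count of 2. Library totals of 14772343 to 35881469 counts set the precision, and counting error is contained in the fit.

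The members and gene lists were chosen with earlier results of these data known. Genes were named by a rule: among members past the threshold with all 6 AHRKO libraries on 1 side of the WT median, the 12 largest rises and 10 largest falls with a mean log2 CPM of at least 1, the 5 falls with the smallest p, the fall and the rise with the smallest p in each window, and up to 4 members of each list with the smallest p; 1 gene that met the rule is not reported here, and other genes with a value were named from the lists or as exceptions after their values were seen. No list, window or chromosome was tested.

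Alternatives were RLE, upper-quartile and off-chromosome TMM scaling, DESeq2 1.42.0, limma-voom with quality weights (limma 3.58.1), other filters and membership thresholds, other windows, a replicate block, and each library left out in turn. Leaving out AHRKO replicates 1 and 2 together was added after seeing the data. The edgeR fit was tested on simulated data. Same-numbered libraries did not deviate together, so the numbers were not taken to pair them. No 2 libraries of a group were alike within counting noise: over 30 pairs the smallest chi-square per degree of freedom was 13.6. Promoters came from RefSeq (GRCm38.p6), which matched 486 of the 718 tested members, or 67.7%; under 80% a comparison of promoter composition is void and none is given.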

Additional observations from a re-analysis of the deposited data

Results flagged for a closer look

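Single libraries far from the other 5 of their group were looked for by Dixon's test in 164 groups of values (named genes and windows, WT and AHRKO apart). It picked out 13; chance alone picks about 1 in 20 groups. AHRKO replicate 1 was the distant library in 10 of them. Its median was -0.536 in window 1, where the other AHRKO libraries ran from -0.33 to -0.21, and -0.465 in window 13, where they ran from -0.23 to -0.13.

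Among single genes, AHRKO replicate 1 was far below its group for Tex45 (0.593 CPM against 3.30 to 5.86), Pllp (1.25 against 9.14 to 22.2) and Slc7a6 (67.8 against 112 to 145). The same held for Terf2 (37.7 CPM against 44.2 to 48.5), Ddx19a (52.0 against 72.0 to 75.8), Terf2ip (22.7 against 29.9 to 31.6) and Banp (22.5 against 31.1 to 37.6). Rfxank was instead far above its group in that library, at 8.90 CPM against 6.77 to 7.46. Slc7a6, Terf2, Ddx19a, Terf2ip and Banp lie in windows 11 to 13.

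In WT, replicate 4 was far above the other 5 for Nlrc5 (80.6 CPM against 9.37 to 16.2) and Psmb10 (64.9 against 22.2 to 28.5). Replicate 2 was far below them for Tm6sf2, at 1.77 CPM against 3.17 to 4.42.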

How the results depend on the processing

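Under every alternative run, the median log2 fold change of the members stayed below 0, from -0.35 without AHRKO replicates 1 and 2 to -0.29 without WT replicate 1. Leaving out 1 library at a time gave 257 to 355 falls, 30 to 57 rises, a median of -0.32 to -0.29, a lowest window median of -0.61 to -0.52 and a highest window median of -0.20 to -0.037. The falls numbered 366 by limma-voom, 335 by DESeq2 and 276 without a filter, and the rises 55, 57 and 41. With windows shifted by 5 Mb the highest window median was -0.19. No paired design is stated, and with the replicate number as a block the rises numbered 21 and the falls 207; same-numbered libraries correlated between -0.47 and 0.03, and the cause was not tested. Over the named genes, no log2 fold change changed sign; 1400 gene-by-setting values stayed on their side of the threshold and 28 lost it, in Retn, Nlrc5, Kcnk1, Zfp703, Ddx60, Ccl22, Il12rb1 and Osgin1. Ccl22 was at 1.78 by limma-voom. No labels give a batch, so none could be separated from genotype.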

Other observations

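Ifi30, a thiol reductase of antigen processing on chromosome 8, is annotated as a processed transcript and so was no member; it was called higher in AHRKO at 1.26. The chromosome 8 genes Comp (0.98), Hpgd (1.06) and Gas6 (1.47) had log2 fold changes near those of the immune genes without passing the threshold. Gas6, a ligand of the TAM receptors, was at 34.1 to 119 CPM in WT (median 71.9) and at 55.7 to 650 in AHRKO (median 122), with an edgeR adjusted p of 0.064. Cdh11, a mesenchymal cadherin, was on the other side at -0.93 (edgeR adjusted p = 0.066). These genes were chosen after their values were seen.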
